A study of Arabidopsis thaliana with 18 samples.

Results

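The response of myb72-2 mutant roots to the beneficial root bacterium WCS417 was taken from 6 of the 18 Affymetrix ATH1 arrays of the series, 3 of colonized and 3 of untreated mutant roots, and covers all 22746 probe sets that are not array controls. The arrays belong to a design of 3 genotypes with and without bacteria, 3 biological replicates each. The genotypes are Col-0 (the wild type), myb72-2 (a mutant of the transcription factor gene MYB72 in the Col-0 background) and oxMYB72. That transgenic line is a myb72-2 plant that carries 35S:FLAG-MYB72, in which a viral promoter active in most cells drives a tagged MYB72, so its untreated group also carries the mutation. Roots were from 19-day-old seedlings grown on agar with 50 µM iron. For the WCS417 groups, 10 µl of a Pseudomonas fluorescens suspension (now named Pseudomonas simiae) at an optical density of 0.01 had been applied to each root at 17 days of age, 2 days before. The other group of each genotype is labelled as untreated, so the suspension medium and the bacteria cannot be told apart. The labels do not say how many plant batches the replicates came from. The p-values therefore cover only the variation among these arrays, part of which can be technical.

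WCS417 is a rhizobacterium that lives on the root surface, promotes growth and primes the shoot for faster defence, a state called induced systemic resistance. Plants read bacterial molecules through surface receptors, which switch on immune genes for oxidases, chitinases, peroxidases and secreted peptides. In Arabidopsis roots the bacterium also switches on part of the iron deficiency response, in which MYB72 acts together with the regulator FIT. Within that response MYB72 drives BGLU42, a β-glucosidase, and the making and release of coumarins, phenolic compounds that mobilize iron from the soil. The mutant arrays were used here to describe which root processes changed with the bacterium when MYB72 was mutated.

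Values are log2 expression values and changes are colonized minus untreated means of 3 arrays each, with the standard error of the limma model after ±. A probe set was called when its Benjamini-Hochberg adjusted p in limma was under 0.05. In myb72-2, 4870 probe sets were called, which is 21.4% of those tested. Of these 1938 (8.52%) were higher and 2932 (12.9%) lower with WCS417. The median size of a called change was 0.51, and the median change of all probe sets was -0.002. For 4628 probe sets (20.3%) the call went with groups that did not overlap in any array. A change of at least 2-fold was called for 319 probe sets upward (1.4%) and 258 downward (1.13%). MYB72 itself had no named probe set in the annotation used, so its level could not be looked up by name. Replicates correlated across probe sets at 0.9958 to 0.9966 in the untreated and 0.9913 to 0.9941 in the colonized group. As a sign of RNA quality, the 3′ minus 5′ probe set value of actin was 1.16 to 1.33 without and 1.2 to 1.48 with bacteria, and that of ubiquitin -0.24 to -0.12 and -0.45 to -0.17. Its part in the changes below was not tested.

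The 15 largest rises and 15 largest falls were taken only from called genes whose groups did not overlap, so their separation was set by the choice. The largest rise among named genes was in an oxidase gene. AT1G26380, an oxidase of the berberine bridge enzyme-like family that takes part in making an indole cyanogenic defence compound, read 3.66, 6.96 and 3.86 in the 3 untreated arrays and 10.46, 11.23 and 11.08 in the colonized ones. The groups did not overlap, but untreated replicate 2 lay far above the other untreated arrays. The change was 6.10 ± 0.55, a 68.5-fold difference (limma adjusted p = 5.75e-08), and without that replicate it was 7.16. Its relative AT1G26390 read 3.7, 5.7 and 3.67 untreated and 9.93, 10.19 and 10.63 colonized. Here too replicate 2 was the highest untreated array and the groups stood apart. AT1G26390 changed by 5.89 ± 0.37 (59.5-fold). AT1G26410 (4.75 ± 0.26) and AT1G26420 (3.31 ± 0.20), which carry nearby locus numbers on chromosome 1, rose with them, whereas AT1G26400 between them in locus number was not called (0.19 ± 0.12). These genes are close relatives, so probes may cross-hybridize and their separate levels are uncertain. Of 19 measured members of the family 6 rose and 2 fell, and the remaining 11 were not called, where 8.52% of all probe sets were higher and 12.9% lower. The family's median change was 0.06, so the large rises belonged to a minority of members.

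Untreated replicate 2 was the highest untreated array for 14 of the 15 largest rises and for 7 of the 15 largest falls. It was the highest for 46.1% of all rises of at least 2-fold and for 35.1% of all probe sets. It exceeded the mean of the other untreated arrays by a median of 0.06 in those rises and 0.01 over all probe sets. Without it 3739 probe sets were called, with 323 rises and 261 falls of at least 2-fold.

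**Figure D1:**
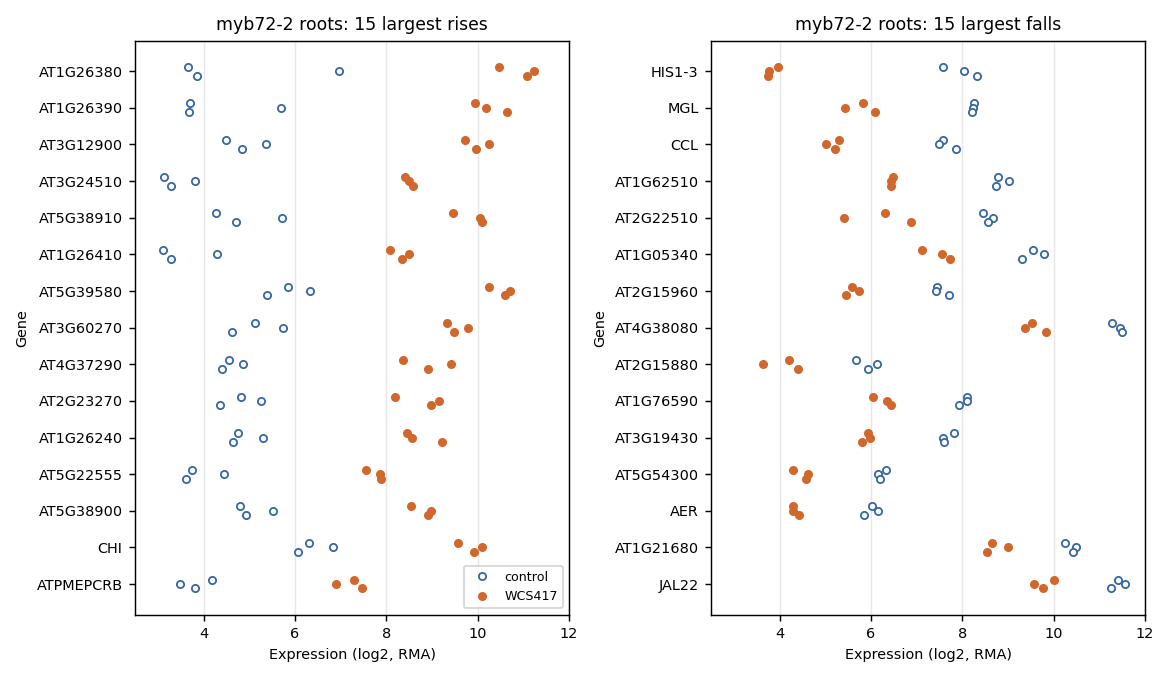
Expression (log2, x axis) of the 15 largest rises (left) and 15 largest falls (right) among named genes in the 3 untreated (open) and 3 WCS417 (filled) myb72-2 arrays, each point 1 array. Genes were chosen among called ones whose groups did not overlap, and 1 open point stands apart to the right for AT1G26380 and AT1G26390.

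Class III peroxidases, secreted enzymes that make or use reactive oxygen in the cell wall, rose in 14 of 28 measured members and fell in 2, with a median change of 0.33, beside 8.52% of all probe sets higher and 12.9% lower. AT5G39580 read 5.85, 6.32 and 5.38 untreated and 10.24, 10.71 and 10.6 colonized. All colonized arrays lay above all untreated ones, and the change was 4.67 ± 0.18 (limma adjusted p = 2.5e-13). AT1G14550 (3.33 ± 0.17), AT5G06730 (3.29 ± 0.18), AT3G03670 (2.59 ± 0.18) and AT5G64120 (2.24 ± 0.13) followed, and Prx37 rose by 1.48 ± 0.15. The 2 members that fell were AT2G37130 (-0.53) and AT4G33420 (-0.37). Chitinases and glucanases, which cut microbial wall polymers or glucans, rose in 7 of 9 members with a median of 0.87, and none fell, beside the same 8.52% higher. The chitinase gene CHI read 6.31, 6.83 and 6.06 untreated and 9.57, 10.09 and 9.92 colonized. The lowest colonized array was well above the highest untreated one, and the change was 3.47 ± 0.17. AT2G43620 (2.97 ± 0.13) and AT4G16260 (1.37 ± 0.11) rose as well. The uncalled members, AT2G43580 and AT2G43600, both changed by 0.15. Genes for PR-1-like CAP proteins, relatives of the defence marker PR1, rose in 5 of 19 members and fell in none, with a median of 0.11. That is 26.3% called, all of them rises, beside 21.4% of all probe sets called in either direction and 8.52% called higher. Their largest rise was in AT4G33720 (2.37 ± 0.36), whose untreated arrays read 6.74, 4.6 and 5.01.

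Secreted signalling peptides rose in 3 of 18 members, and 2 fell, so that 27.8% were called, near the 21.4% of all probe sets. AT4G37290, the precursor of the immune-amplifying peptide PIP2, read 4.55, 4.87 and 4.39 untreated and 8.37, 9.41 and 8.92 colonized. The groups were far apart, and the change was 4.30 ± 0.19 (19.7-fold, limma adjusted p = 1.99e-12). The precursor of its relative PIP1, AT4G28460, rose by 3.32 ± 0.31. The third riser was AT1G47400, an iron-responsive peptide described with the iron genes. RALFL32, a member of the rapid alkalinization factor family, fell by 0.77. AT3G24510, annotated as a defensin-like protein, read 3.12, 3.81 and 3.28 untreated and 8.4, 8.5 and 8.58 colonized, a change of 5.09 ± 0.18. Its untreated values were among the dim ones of the array, where the method compresses differences.

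Of 6 measured genes of pattern-triggered immunity 3 rose and none fell, with a median of 0.30, beside 8.52% of all probe sets higher. WRKY53, a transcription factor of defence and ageing, read 5.28, 5.14 and 5.57 untreated and 6.67, 6.97 and 6.66 colonized. All colonized arrays were higher, by 1.43 ± 0.14 on average. The receptor-like kinase gene AT1G51890 rose by 0.78 ± 0.14 and WRKY22 by 0.41 ± 0.12. The call of WRKY22 was lost without colonized replicate 1 (adjusted p = 0.07), colonized replicate 2 (0.0672) or untreated replicate 3 (0.059). The other 3 members were not called. They are BIK1, a kinase that relays receptor signals (0.09), the receptor gene EFR (-0.03) and SAG101 (0.19). Of 14 calcium signalling genes 5 rose and none fell, beside 8.52% of all probe sets higher. Among them were CML38 (0.96 ± 0.16), CML37 (0.84 ± 0.17) and CML41 (0.61 ± 0.14), which encode calmodulin-like calcium sensors. With the dimmest 30% of probe sets left out, 2 of the calcium list were called, since called members were themselves among the dim ones removed.

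All 5 measured genes of the coumarin list rose in the mutant, with a median of 0.66, against 8.52% of all probe sets called higher. They encode enzymes, and no gene for coumarin export was among them. AT3G12900, which encodes the scopoletin 8-hydroxylase that makes fraxetin, read 4.48, 5.36 and 4.83 untreated and 9.73, 10.24 and 9.97 colonized. The groups did not overlap, and the change was 5.09 ± 0.21, a 34.1-fold difference (limma adjusted p = 4.08e-13). AT3G13610, the feruloyl-CoA hydroxylase at the entry of the pathway, read 10.82, 11.27 and 10.76 untreated and 12.67, 12.92 and 12.77 colonized. It was already bright without bacteria and rose by 1.84 ± 0.12 (3.58-fold). Its close relative AT1G55290 rose by 0.52 ± 0.14, a call lost without colonized replicate 2 (adjusted p = 0.0713). AT1G28680, the coumarin synthase gene, rose by 0.52 ± 0.11. BGLU42, the β-glucosidase downstream of MYB72, read 7.45, 7.4 and 7.24 untreated and 8.13, 7.96 and 7.97 colonized. These groups did not overlap either, with a small change of 0.66 ± 0.12 (1.58-fold, limma adjusted p = 0.000383).

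Of 4 measured genes of the iron uptake list 2 rose and none fell. These 4 encode a manganese, a zinc and an organic cation transporter and a cytochrome P450, so genes for the uptake of iron itself were not covered. Of 6 metal transporters in a list of their own 1 was called, a rise (16.7%). Of all probe sets 21.4% were called in either direction and 8.52% higher. AT3G58060, the vacuolar manganese transporter MTP8 that protects iron-starved roots from manganese, read 5.05, 4.58 and 4.93 untreated and 8.17, 8.42 and 7.79 colonized. The groups were clearly separate, and the change was 3.27 ± 0.15 (9.67-fold). The zinc transporter gene ZIP9, a member of both lists, rose by 1.25 ± 0.17. The other 2 measured genes of the iron uptake list were not called. CYP71B5, a cytochrome P450, read 3.37, 3.29 and 3.49 untreated and 3.61, 3.43 and 3.57 colonized, and OCT1, an organic cation transporter, changed by -0.41 ± 0.23. Their ranges overlapped between the groups.

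Of 10 iron deficiency regulators and peptides 3 rose, 3 fell and 4 were not called, beside 8.52% of all probe sets higher and 12.9% lower. AT1G47400, the IRON MAN peptide IMA1 that signals low iron, read 3.58, 4.11 and 4.42 untreated and 6, 5.87 and 5.15 colonized. The groups were separate but wide, with a change of 1.63 ± 0.25. AT1G74770, a BRUTUS-like ubiquitin ligase that limits iron uptake, rose by 0.94 ± 0.12. Among bHLH factors that act early in iron sensing, bHLH34 rose by 0.37 ± 0.12, while bHLH121 (-0.82 ± 0.13), bHLH104 (-0.49 ± 0.14) and ILR3 (-0.43 ± 0.09) fell. The call of bHLH34 was lost without colonized replicate 1 (adjusted p = 0.129) or 2 (0.0541) and without untreated replicate 1 (0.0696) or 3 (0.102). That of bHLH104 was lost without colonized replicate 2 (0.12) or untreated replicate 3 (0.0808). BHLH101 (-0.07), PYE (0.34), bHLH115 (-0.27) and AT1G18910, a second BRUTUS-like gene (0.15), were not called.

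**Figure D2:**
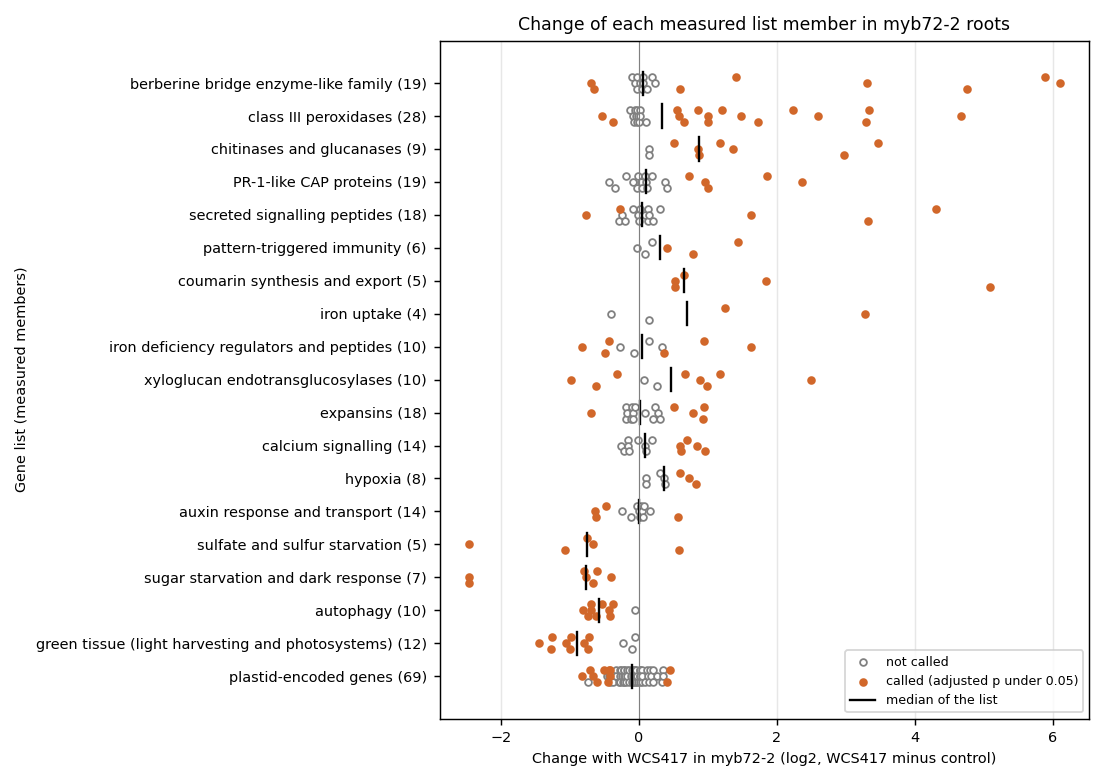
Log2 change with WCS417 in myb72-2 (x axis) of every measured member of 19 gene lists, filled where called at a limma adjusted p under 0.05, with the list median as a bar. The coumarin, chitinase and hypoxia lists lie to the right of 0 and the sugar starvation, autophagy and green tissue lists to the left. Most other lists, including sulfur starvation, hold members on both sides.

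The falls were smaller than the rises and led by a linker histone. HIS1-3, a variant H1 known from drought and shade responses, read 7.57, 8.04 and 8.32 untreated and 3.96, 3.77 and 3.74 colonized. The colonized arrays were near the lower end of the scale, and the change was -4.15 ± 0.33, a 17.8-fold fall (limma adjusted p = 7.15e-09). AT1G62510, annotated as a lipid-transfer-like wall protein, fell by 2.39 and AT4G38080, a bright hydroxyproline-rich wall protein gene, by 1.84. AT1G76590, a PLATZ-type transcription factor gene, fell by 1.76 and the lectin gene JAL22 by 1.62. All 15 largest falls lay between -4.15 and -1.62.

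All 7 measured genes of the sugar starvation and dark response list fell, with a median of -0.77, against 12.9% of all probe sets. These genes are normally raised when carbon runs short. MGL, a methionine gamma-lyase that breaks down methionine, read 8.26, 8.24 and 8.22 untreated and 5.82, 5.43 and 6.08 colonized. The untreated arrays were nearly equal and all colonized ones far lower, with a change of -2.46 ± 0.24 (limma adjusted p = 1.27e-07). CCL, a gene of short-lived RNA under clock control, fell by the same 2.46. IVD (-0.80 ± 0.16), MCCA (-0.77 ± 0.17) and MCCB (-0.41 ± 0.10), which encode steps of leucine breakdown, fell as well. So did AT4G33150, the lysine-degrading enzyme (-0.60 ± 0.12), and AT3G15450 (-0.66 ± 0.15). IVD, MCCA and MCCB are also in a list of 8 genes of branched-chain amino acid breakdown and electron transfer flavoprotein. In that list 4 fell, 1 rose (ALDH6B2, 0.35 ± 0.11) and 3 were not called, with a median of -0.20. The call of ALDH6B2 was lost in 5 alternative settings. MGL is also a member of the sulfate and sulfur starvation list, in which 4 of 5 genes fell. SUFE2, a sulfur donor protein of iron-sulfur cluster assembly, changed by -1.07 ± 0.16 and the ATP sulfurylase gene APS4 by -0.75 ± 0.12, while its relative APS3 rose by 0.58 ± 0.11.

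Autophagy genes fell in 9 of 10 measured members and rose in none, with a median of -0.58, beside 12.9% of all probe sets lower. Autophagy recycles cell contents in the vacuole, and the ATG8 proteins coat its membranes. ATG8B read 7.8, 7.94 and 7.84 untreated and 6.85, 7.12 and 7.18 colonized. The groups did not overlap, and the change was -0.81 ± 0.12 (limma adjusted p = 2.73e-05). ATG8E (-0.74 ± 0.18), ATG8F (-0.70 ± 0.11), ATG8C (-0.69 ± 0.19) and APG8H (-0.62 ± 0.12) followed, and ATG3, the enzyme that attaches ATG8 to lipid, changed by -0.37 ± 0.09. The call of ATG8C was lost without colonized replicate 2 (adjusted p = 0.0538), and only ATG8G (-0.05) was not called with all arrays. ATG8H (-0.42 ± 0.14) was called near the threshold (limma adjusted p = 0.0429). Across the alternative settings 7 to 9 members were lower, with 8 under median centring and 8 without untreated replicate 2. Members of the ATG8 family are alike in sequence, so cross-hybridization may tie their values together.

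**Figure D3:**
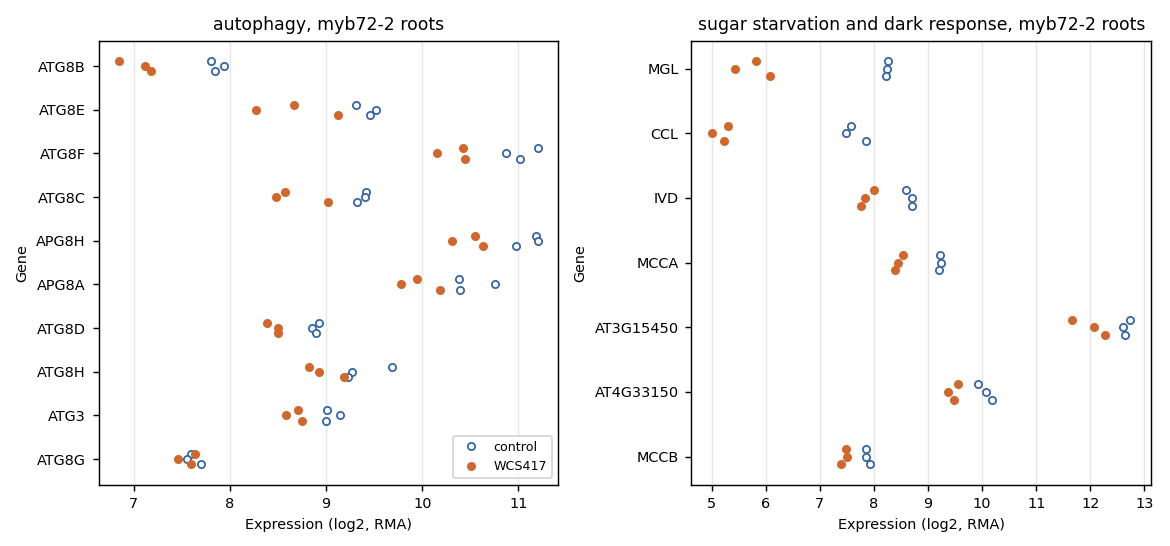
Expression (log2, x axis) of the autophagy (left) and sugar starvation (right) genes in the 3 untreated (open) and 3 WCS417 (filled) myb72-2 arrays. Filled points lie left of the open ones for every gene except ATG8G, where they mix.

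Genes of green tissue, which encode light-harvesting and photosystem parts and are weak in roots, fell in 9 of 12 members, with a median of -0.89, beside 12.9% of all probe sets lower. LHCB4.2 read 7.25, 7.08 and 7.05 untreated and 5.67, 5.85 and 5.51 colonized. All colonized arrays were lower, with a change of -1.45 ± 0.14. LHCB4.1 (-1.28), PSBY (-1.26) and PSAE-1 (-1.05) fell with it. The summed level of the list was 10.52 to 10.55 in the untreated and 9.38 to 9.67 in the colonized arrays on the log2 scale, which did not overlap. Fewer green cells and less of this RNA per cell cannot be told apart in whole roots. Of 69 plastid-encoded genes 9 fell and 2 rose (15.9% called), a share below the 21.4% of all probe sets, with petB (-0.82), psbJ (-0.71) and psbL (-0.67) lowest. Across the alternative settings between 5 and 16 of them were lower. Root hair genes, checked as markers of the labelled tissue, were present in every array, with a summed level of 9.56 to 9.87 untreated and 10.24 to 10.41 colonized. Of 4 members EXPA18 (0.79 ± 0.13), GH9C1 (0.56 ± 0.16) and EXPA7 (0.51 ± 0.16) rose. Without untreated replicate 2 or without colonized replicate 1 the call of 1 member was left, with EXPA7 at an adjusted p of 0.119 and 0.0617 and GH9C1 at 0.087 and 0.0608. The part of green or root hair cells in the other changes was not tested.

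Cell wall remodelling genes changed in both directions. Xyloglucan endotransglucosylases, which cut and rejoin a wall polymer, rose in 5 of 10 members and fell in 3, beside 8.52% of all probe sets higher and 12.9% lower. XTH26, a gene expressed in root hairs, read 3.62, 3.7 and 3.61 untreated and 5.99, 6.67 and 5.76 colonized. The groups were far apart, and the change was 2.50 ± 0.19 (limma adjusted p = 4.48e-09). XTH20 (1.18), XTH33 (0.98) and XTH32 (0.89) rose too, while XTH21 fell by 0.99. Expansins, which loosen the wall, rose in 4 of 18 members and fell in 1, with 27.8% called against 21.4% of all probe sets. The rises were led by EXPA15 (0.95 ± 0.16) and EXPB3 (0.93 ± 0.16), and EXLA1 fell by 0.70. ATPMEPCRB, a pectin methylesterase gene, read 4.19, 3.47 and 3.8 untreated and 7.28, 6.9 and 7.46 colonized. It was the only gene among the 15 largest rises whose highest untreated array was not replicate 2, and it changed by 3.39 ± 0.17.

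Further lists are given beside the 8.52% of all probe sets called higher and 12.9% called lower. Glycosyltransferases rose in 7 and fell in 8 of 50 members, with UGT84A1, which glucosylates phenolic acids, up by 2.08 ± 0.17 and UGT73B1 down by 1.37. Glutathione transferases rose in 1 (GSTU20, 0.92) and fell in 5 of 14, led by GSTU16 (-1.01). Cytochromes P450 rose in 2 and fell in 4 of 22, with CYP71B6 at 1.24 and CYP71B26 at -1.19. Auxin genes rose in 1 and fell in 3 of 14, among them LBD29 (-0.63), a factor of lateral root formation, and GH3.17 (-0.62), which inactivates auxin. Hypoxia genes rose in 3 of 8 and fell in none, with a median of 0.37, among them AT4G10270 (0.83 ± 0.17) and AT4G17260, a lactate dehydrogenase gene (0.59 ± 0.10). Across the alternative settings 2 to 5 hypoxia genes rose, with 2 without untreated replicate 2 and 5 without colonized replicate 3. AT5G10040 of the same list (0.73 ± 0.24) read 4.91 in colonized replicate 1 and at most 3.77 in the other 5 arrays, and without that array its change was 0.32 (adjusted p = 0.271). Of 40 AGAMOUS-like factors 5 were called (12.5%), and of 22 β-glucosidases 3, including BGLU42 (13.6%).

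The same contrast in Col-0, run on separate plants, gave called changes in 3491 probe sets (15.3%). Of the 319 rises of at least 2-fold in myb72-2, 316 were also called higher in Col-0, and of the 258 falls 252 were called lower. Conversely, 296 of the 301 rises and 207 of the 209 falls of that size in Col-0 were called in the same direction in the mutant. The test of the difference itself called 4 probe sets (0.0176%), all with a smaller response in myb72-2, and 849 had an unadjusted p under 0.05. None of the 30 largest changes was among them. Their differences from Col-0 lay between -0.67 and 0.76 for the rises and between -0.63 and 0.08 for the falls. For AT1G26380 the difference was -0.67 ± 0.78, so a difference of several-fold would fit within its error, whereas for AT3G12900 it was -0.31 ± 0.29 and for AT4G37290 0.11 ± 0.28.

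The 4 probe sets with a smaller response include 3 named genes. BGLU42 rose in Col-0 from 7.39, 7.52 and 7.3 to 9.72, 9.39 and 9.61, a change of 2.17 against 0.66 in the mutant. The colonized mutant arrays lay between the untreated and colonized Col-0 arrays, without overlap with either. The difference was -1.52 ± 0.17 (limma adjusted p = 0.000117). CYP71B5 rose by 2.19 in Col-0, to 5.69, 5.22 and 5.68, and differed by -2.03 ± 0.22 (adjusted p = 0.00011). AT5G55620, whose role is not given in the annotation used, stayed at 3.22 to 3.32 untreated and 3.12 to 3.35 colonized in the mutant, and reached 5.34, 4.82 and 5.01 in colonized Col-0. Its difference was -1.80 ± 0.24 (adjusted p = 0.00145). The remaining probe set, for which the annotation used names no gene, read 4.04, 3.37 and 3.53 untreated and 3.53, 4.14 and 3.56 colonized in the mutant. In Col-0 it read 3.62, 3.67 and 3.3, then 6.8, 6.77 and 7.08, and the difference was -3.25 ± 0.26 (adjusted p = 8.02e-07). In oxMYB72 it was between 11.33 and 12.63 in all 6 arrays.

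**Figure D4:**
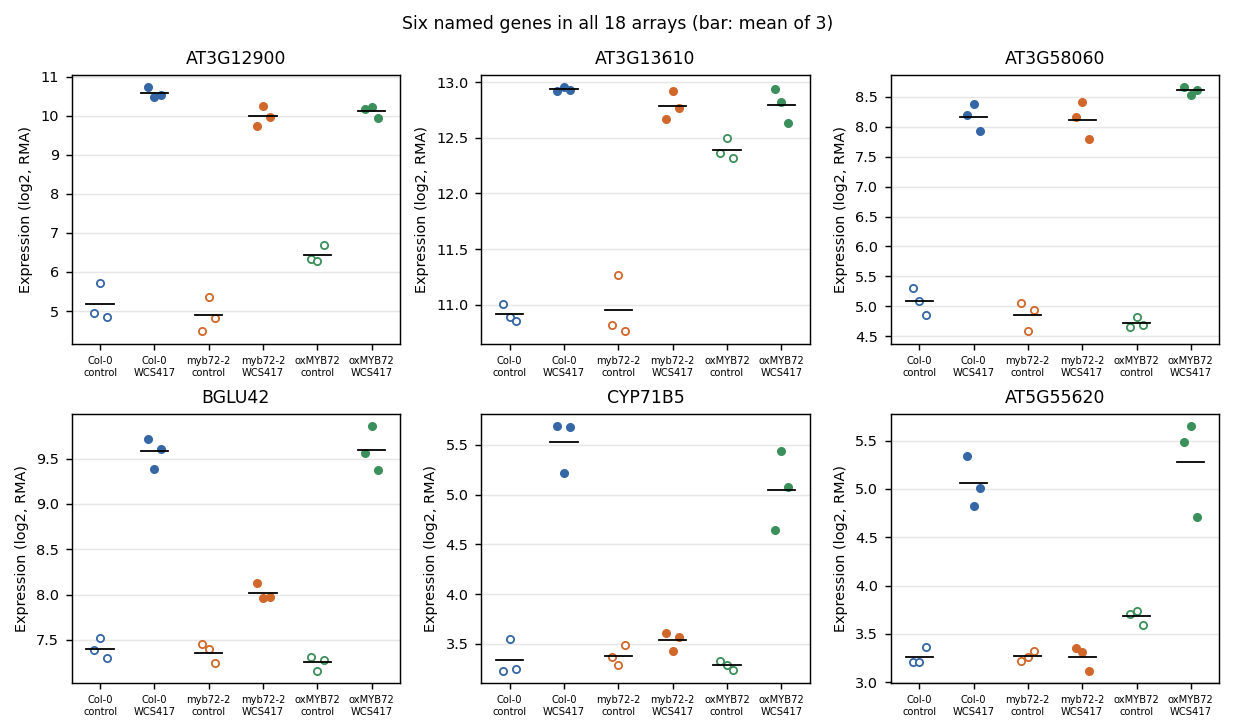
Expression (log2, y axis) of 6 genes in all 18 arrays by genotype and treatment, open for untreated and filled for WCS417, with the mean of 3 arrays as a bar. AT3G12900, AT3G13610 and AT3G58060 rise with WCS417 in all 3 genotypes, while BGLU42, CYP71B5 and AT5G55620 with WCS417 are lower in myb72-2 than in the other genotypes.

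The response of oxMYB72, with MYB72 under the viral promoter, differed from that of the mutant at 633 probe sets (2.78%). The change was more positive in myb72-2 for 422 of them (1.86%) and more negative for 211 (0.928%). With each array centred on its median the share that was more positive in the mutant was 79.7% of 612, against 66.7%. Of the 15 largest rises in the mutant 14 were called larger than in oxMYB72, all but ATPMEPCRB. These genes were chosen by the size of the mutant change, which tilts this count toward larger changes in the mutant. In oxMYB72 itself 9 of them were called higher, where 19.3% of probe sets were called in either direction. All 15 largest falls were also called in oxMYB72, and the difference was called only for JAL22 (-0.90, adjusted p = 0.0123).

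Among the genes with a larger rise in myb72-2, some had untreated levels in oxMYB72 like those of the untreated mutant and others had higher ones. AT4G37290 was low there without bacteria (4.68, 4.44 and 4.7) and remained so with them (4.23, 4.53 and 4.5), which gave a difference of 4.49 (limma adjusted p = 2.25e-09). AT3G24510 likewise read 3.31, 3.35 and 3 untreated and 3.25, 3.99 and 3.22 colonized, a difference of 4.82. For these genes the 2 groups of oxMYB72 overlapped, and all its arrays were near the untreated level of the mutant. AT5G42830, an acyltransferase family gene, rose in the mutant from 7.28, 7.46 and 7.13 to 10.29, 10.67 and 10.41. In oxMYB72 it read 10.77, 10.94 and 10.91 without and 10.77, 10.12 and 10.3 with bacteria, a difference of 3.65 (adjusted p = 7.16e-10). Its untreated oxMYB72 arrays were above all colonized mutant arrays. AT1G26420 was at 6.67, 7 and 7.01 in untreated oxMYB72, against 3.76, 4.18 and 3.89 in the untreated mutant. Its colonized mutant arrays read 6.63, 7.54 and 7.61, in the range of untreated oxMYB72 or above it. With bacteria it changed by -0.89 in oxMYB72. AT3G13610 was at 12.36, 12.5 and 12.32 in untreated oxMYB72 and rose by 0.40 with bacteria. It rose by 1.84 in the mutant, a difference of 1.43 (adjusted p = 1.21e-05). The genes with a smaller rise in the mutant included BGLU42 (-1.69), CYP71B5 (-1.61), BHLH101 (-1.62, adjusted p = 0.00022) and the expansin gene EXPB2 (-2.08). The Col-0 and oxMYB72 differences use the same 6 mutant arrays.

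**Figure D5:**
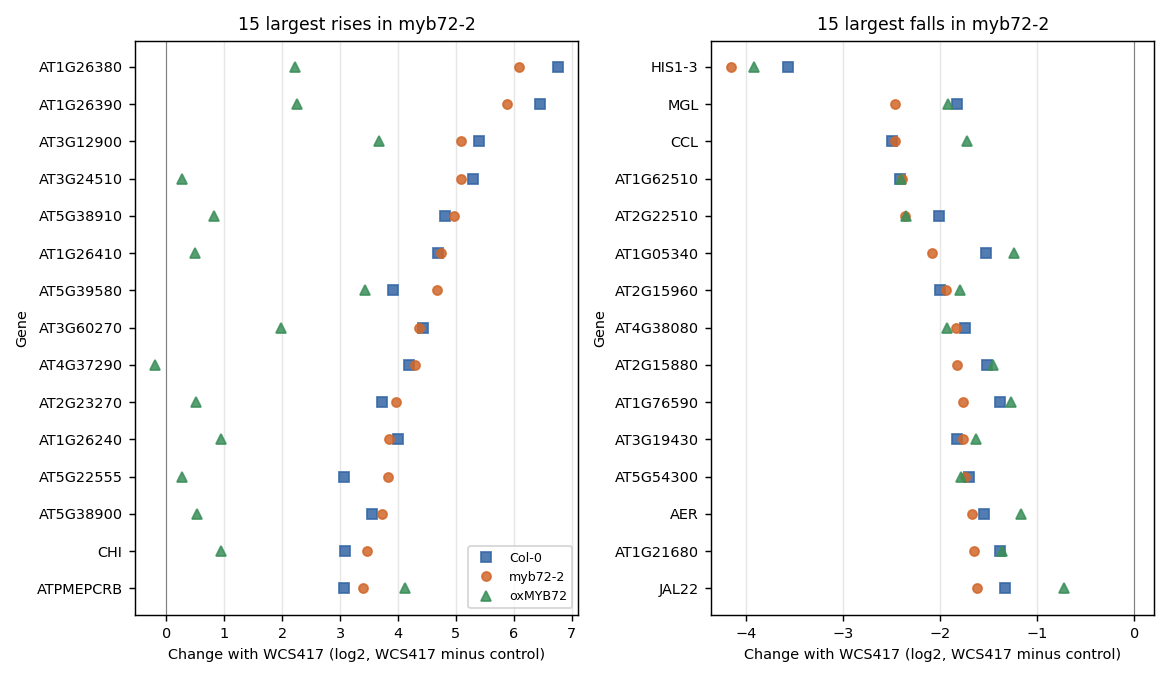
Log2 change with WCS417 (x axis) in Col-0 (squares), myb72-2 (circles) and oxMYB72 (triangles) for the 15 largest rises (left) and 15 largest falls (right) in myb72-2. Triangles lie to the left of circles for 14 of the rises but not for ATPMEPCRB, and the gap is smallest for AT5G39580 (3.43 against 4.67).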

How the data were processed

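Per the submitters' processing notes, the authors computed the deposited log2 values with RMA, which corrects background, equalizes array distributions and summarizes probes. Its version was not given in the sources used here. The log2 scale was taken from the method and the range (2.42 to 14.63). RMA hides a change shared by most genes and compresses differences of dim probe sets. Precision is limited by the number of arrays.

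Of 22810 probe sets 64 controls were left out. The platform annotation named 1 gene for 13513 probe sets, several for 503 and none for 8730. Symbols came from a RefSeq gene table (TAIR10.1), which matched 13436 of them, and no coordinates were used. The brightest probe set stood for a gene.

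Tests used limma 3.58.1 under R 4.3.3: 1 model of the 6 group means on 18 arrays, eBayes, two-sided, Benjamini-Hochberg adjustment over 22746 probe sets. On simulated arrays it recovered 44% of 100 probe sets changed by 0.5 and 100% of 100 changed by 1 in the myb72-2 contrast. No other probe sets were changed there, while 4870 were called in the data. The adjustment was thus stricter in the simulation, and the 44% does not carry over to the data. Named genes were the 15 largest called rises and falls without overlap, up to 5 called members per list, all members of the coumarin, iron and immune lists, and genes called in a difference between genotypes. The lists (52, with 16 more added from annotation names) and all members were chosen with earlier results of these data known, and 2 entries were removed after their values were seen, 1 of uncertain role and 1 not of its family. Lists are described by counts and medians. Alternatives were median centring, repeated quantile normalization, a variance trend, a replicate block, only the arrays compared, no dim probe sets, and leaving out single arrays. List counts without untreated replicate 2 were added after seeing the data. Figures used matplotlib 3.10.9.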

Additional observations from a re-analysis of the deposited data

Results flagged for a closer look

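The size of the WCS417 response was tested as a difference between genotypes, and these named results passed. Against Col-0 the response in myb72-2 was smaller for AT5G55620 (-1.80), BGLU42 (-1.52), CYP71B5 (-2.03) and a probe set without a gene name (-3.25).

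Against oxMYB72 the response in myb72-2 was larger for 14 of the 15 largest rises, a set chosen by its change in myb72-2. Among oxidases and other enzymes the differences were 3.88 for AT1G26380, 3.64 for AT1G26390, 4.25 for AT1G26410, 1.41 for AT3G12900, 1.23 for AT5G39580 and 2.51 for CHI. For secreted and wall proteins they were 4.82 for AT3G24510, 4.15 for AT5G38910, 4.49 for AT4G37290, 2.90 for AT1G26240 and 2.39 for AT3G60270. They were 3.46 for AT2G23270, 3.55 for AT5G22555 and 3.20 for AT5G38900. The fall of JAL22 was larger in the mutant (-0.90). Single arrays were not tested as outliers.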

How the results depend on the processing

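The 30 largest changes kept their call and direction in all 12 alternatives of the myb72-2 contrast. Of 207 called named genes 155 kept the call and 52 lost it in at least 1 alternative. The count of called probe sets in myb72-2 was 4930 with median centring, 5004 with quantile normalization repeated, 5050 with a variance trend, 3479 with only the arrays compared, 4968 without the dimmest 30% and 3739 to 5419 with an array left out. The difference from Col-0 covered 2 probe sets without the dimmest 30%, since CYP71B5 and AT5G55620 were among the dim ones removed, and 4 to 6 with an array left out. The difference from oxMYB72 covered 443 to 672 with an array left out. Calls in Col-0 ranged from 2290, without Col-0 control replicate 3, to 3005, and the cause was not tested.

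Same-numbered arrays did not deviate together (correlations -0.015, 0.036 and -0.119 in myb72-2), so no effect shared by replicate number was seen. Whether same-numbered samples were grown or handled together cannot be told from this, and the labels do not say. With the replicate number as a block 4829 probe sets were called in myb72-2, 3426 in Col-0, and 4 and 615 for the differences from Col-0 and oxMYB72.

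The 16 values that changed sign, over 9 probe sets, were all of probe sets not called in myb72-2. With single arrays left out, the change lay between -0.23 and 0.12 for BHLH101 (0.12 without colonized replicate 1, 0.00 without untreated replicate 2). It lay between -0.02 and 0.20 for BIK1, -0.09 and 0.03 for EFR (also 0.01), -0.05 and 0.06 for AT5G55620 (also 0.02), -0.01 and 0.14 for PGL34, -0.11 and 0.07 for BAT1, -0.21 and 0.10 for BGLU47, and -0.04 and 0.03 for CLE41 (also -0.01). For the probe set without a gene name that differed from Col-0 it lay between -0.10 and 0.30 (also -0.04). AT5G55620 was 0.01 with median centring and BAT1 0.05 with quantile normalization repeated. The cause was not tested.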

Other observations

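Further gene lists held called members in myb72-2. Tricarboxylic acid cycle and respiration genes rose in 4 of 21 members, with the malate dehydrogenase gene MDH at 0.65 ± 0.13 and the isocitrate dehydrogenase gene IDH-VI at 0.55 ± 0.12. Cell division and histone genes rose in 4 of 10, among them HTR12, the centromeric histone, at 0.54 ± 0.11. U-box ubiquitin ligases rose in 3 of 9, and PUB23 and PUB22, which dampen immune signalling, changed by 0.73 ± 0.13 and 0.49 ± 0.13. Sugar transporters rose in 2 (SWEET13 and SWEET14, the latter by 0.95) and fell in 2 of 19, with SWEET2, a vacuolar sugar transporter of roots, at -0.95. Germin-like proteins rose in 2 of 11, AT5G38910 by 4.97 and AT1G18980 by 0.90. In limma these are counts of called members, beside 8.52% of all probe sets higher and 12.9% lower. The share called in either direction was 19% for the respiration list, 21.1% for sugar transporters and 18.2% for germin-like proteins. It was 40% for cell division and histone genes and 33.3% for U-box ubiquitin ligases. Over all probe sets it was 21.4%. Apart from the sugar transporters, the called members of these lists were all rises, for which the share over all probe sets is the 8.52%. Whether any of these lists differs from all probe sets was not tested.

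The largest called rise without a gene name was 6.76 and the largest such fall -2.37. Gene names were available for 1059 of the called rises and 1541 of the called falls.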
